A study of Homo sapiens with 7 samples.

Results

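FGA, FGB and FGG encode the α, β and γ chains of fibrinogen, and they lie side by side on chromosome 4. They were found in the expression table of HepG2 cells by their symbols, as 3 of 23303 loci with a gene symbol, and each had a locus of its own. HepG2 is a human liver cancer cell line, grown here without any stated treatment, and each of the 7 samples is a single library or table of this line. Nucleosome positions were mapped by native MNase-Seq, gene expression by RNA-Seq, and 5 histone marks by ChIP-Seq, of which H3K4me3, H3K9ac and H3K27ac accompany activity and H3K27me3 and H3K9me3 repression. Each assay and mark has a single sample and there is no second condition, so no P value is given. Whether the expression columns of the RNA sample are replicates is not stated. Every level is an average over the culture, in which the number of expressing cells and the RNA per cell cannot be told apart.

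Fibrinogen is made by hepatocytes and secreted into plasma as a molecule with 2 copies of each of the 3 chains. Thrombin cuts short peptides from the α and β chains, and the resulting fibrin assembles into the mesh of a blood clot. The 3 genes are known as acute-phase genes that respond to interleukin-6, and C/EBP and STAT3 are known regulators of their promoters. H3K4me3 is typical of active promoters, H3K9ac and H3K27ac of active promoters and enhancers, H3K27me3 of Polycomb repression and H3K9me3 of heterochromatin.

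The listed loci, in the coordinates of hg19, follow each other in the order FGB, FGA, FGG. FGB (XLOC_020262) lies on the plus strand of chromosome 4 from 155484131 to 155493915. FGA (XLOC_020722) lies on the minus strand from 155501877 to 155512036, so that FGB and FGA point towards each other. FGG (XLOC_020723) lies on the minus strand from 155525285 to 155534089, upstream of FGA. The region studied runs from the lowest start to the highest end with 20 kb on each side, from 155464131 to 155554089, and the gene at its lower edge is PLRG1, a spliceosome component, on the minus strand from 155456150 to 155471717. No other named locus overlapped the region.

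The promoters of the 3 genes are shown first, since the marks at their starts differed among the genes. Each line holds the 250 bases before the RefSeq start on GRCh38.p14, a different build from the one used for nucleosomes, 5′ to 3′ on the strand of the gene. Capitals mark every match, on either strand, to TTNNGNAAT (C/EBP) or CTGGGA (core of the interleukin-6 response element).
FGB, chr4:154562730-154562979, plus strand: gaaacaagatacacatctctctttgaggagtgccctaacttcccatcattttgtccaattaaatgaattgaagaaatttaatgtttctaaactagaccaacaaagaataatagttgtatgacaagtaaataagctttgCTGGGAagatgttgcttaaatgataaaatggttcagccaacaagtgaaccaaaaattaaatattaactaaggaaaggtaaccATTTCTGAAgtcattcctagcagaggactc
FGA, chr4:154590743-154590992, minus strand: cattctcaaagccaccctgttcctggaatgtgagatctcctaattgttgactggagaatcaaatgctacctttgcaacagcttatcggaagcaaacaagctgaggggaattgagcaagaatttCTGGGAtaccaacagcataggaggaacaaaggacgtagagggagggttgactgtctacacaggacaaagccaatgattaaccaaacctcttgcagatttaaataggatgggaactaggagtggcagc
FGG, chr4:154612657-154612906, minus strand: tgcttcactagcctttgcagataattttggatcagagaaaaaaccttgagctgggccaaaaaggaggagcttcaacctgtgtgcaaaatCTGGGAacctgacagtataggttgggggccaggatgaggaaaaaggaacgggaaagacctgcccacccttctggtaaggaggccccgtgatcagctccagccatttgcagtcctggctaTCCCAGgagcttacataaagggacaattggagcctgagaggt

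All 3 promoters held CTGGGA, which is found in 28.8% of 27305 promoters of the same length. Counted from the start, with -1 as the base before it, the match began at -112 in FGB, -127 in FGA and -161 in FGG, and FGG had another on the opposite strand from -42 to -37. TTNNGNAAT was found in FGB alone of the 3 genes, on the opposite strand from -30 to -22, and in about 1 in 10 promoters. The letters TATAAA, for the TATA motif of core promoters, were in none of the 3 and in 11.1% of all promoters. The same held for GGGCGG, bound by Sp1, which 42.3% of all promoters contain. The matches describe the letters only. The 3 sequences were poor in CpG, with 0 in FGB and 2 each in FGA and FGG, against a median of 11 over all promoters. Their GC content was 33.2% in FGB, 45.2% in FGA and 50.8% in FGG, and the median was 58%.

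All 3 genes were expressed, at clearly different levels. Expression is given as FPKM, which is scaled by gene length and library depth. Levels of different genes are compared on this scale, and other influences on FPKM that differ between genes were not tested. The table has 2 expression columns, called run 1 and run 2 here, and FGG stood at 466.8 FPKM in the first and 464.7 in the second. FGA had 208.6 and 214.0, and FGB had 57.0 and 56.2. The order FGG, FGA, FGB was the same in both runs and no values overlapped. All 3 were above an FPKM of 50, as were 6.56% of 13265 named genes with a start of their own.

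The chains are assembled in equal numbers, but their mRNA levels were not equal. By mean FPKM, FGG was 8.23 times as high as FGB (8.18 in run 1 and 8.27 in run 2), FGA was 3.73 times as high as FGB (3.66 and 3.81), and FGG was 2.20 times as high as FGA (2.24 and 2.17). The runs differed by 1.58% of the mean for FGB, 2.54% for FGA and 0.454% for FGG. Over the 386 genes with an FPKM of at least 100, the median difference between runs was 2.1%, and the 90th percentile was 5.46%. The gaps between the 3 genes were thus far larger than the spread between runs. Whether the runs are separate cultures is not stated, so this spread may be technical. PLRG1 had 40.4 and 37.9.

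Among the 13265 named genes, FGG ranked 67th, FGA 143rd and FGB 759th. Next to FGG in this order were PSMA6, a proteasome subunit, at a mean FPKM of 479.1 and P4HB, a protein disulfide isomerase of the endoplasmic reticulum, at 460.5. FGA stood between PTP4A1 at 214.7 and ERH at 210.9. FGB stood between MRPS15, a mitochondrial ribosomal protein gene, at 56.64 and VAMP8 at 56.53. These neighbours lay closer to the fibrinogen genes than the 90th percentile of the difference between runs. One step further were B2M (481.3) and CALR (444.5) for FGG, PSMB3 (215.9) and PKM2 (210.8) for FGA, and NDUFA5 (56.72) and NKD1 (56.42) for FGB.

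**Figure D1:**
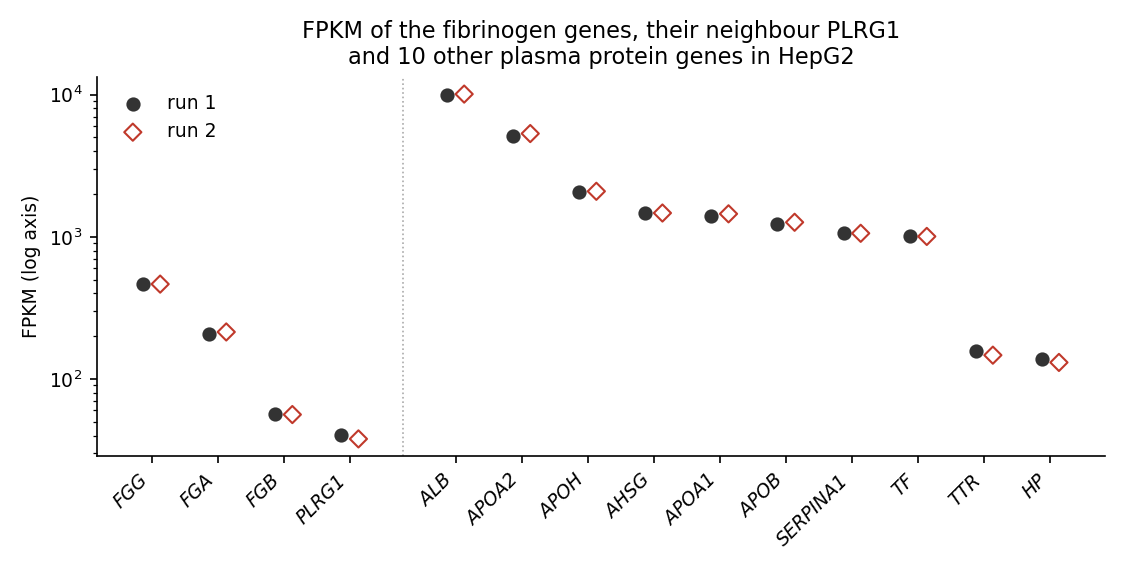
FPKM on a log axis of FGG, FGA, FGB and PLRG1 (left of the dotted line) and of 10 other plasma protein genes, with a filled circle for run 1 and an open diamond for run 2. FGG at 466.8 and 464.7 lies above TTR and HP, and FGB at 57.0 and 56.2 lies below all 10.

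The fibrinogen genes were set beside 10 other genes of secreted liver proteins. All 10 were above FGB, and 8 were above FGG. ALB, the gene of serum albumin, was the highest, with 9933 FPKM in the first run and 10088 in the second. APOA2 followed with 5095 and 5323, and APOH with 2057 and 2089. The 2 genes between FGG and FGB were TTR, transthyretin, at a mean of 152.2 and HP, haptoglobin, at 134.8, both of which were also below FGA.

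The liver identity of the line was checked with markers. All 6 hepatocyte markers (ALB, APOA1, APOB, TTR, HNF4A and AFP) were above an FPKM of 50, from 64.6 for HNF4A to 10011 for ALB as means. The leukocyte markers PTPRC and MARCO were at 0 and 0.0336, and the endothelial marker PECAM1 at 0.137. The 2 fibroblast markers went different ways, with COL1A1 at 0.164 and ACTA2, smooth muscle actin, at 33.9.

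The nucleosome map held 460 positions in the fibrinogen region, and 40 of them carried at least 1 of the 5 marks. This is 8.70% (exact 95% interval 6.28 to 11.7), against 1.43% of the 14217405 positions in the genome. The interval covers counting error only, since positions of one library are not replicates. H3K4me3 was on 25 positions, H3K9ac on 18 and H3K27ac on 18. The repressive marks were on few positions, but not on fewer than in the genome by share. H3K27me3 was on 1 position, or 0.217% (0.00550 to 1.21) against 0.185% in the genome, and H3K9me3 on 2, or 0.435% (0.0527 to 1.56) against 0.243%. H3K4me3 was at 5.43% of positions (3.55 to 7.92) against 0.603% in the genome, and H3K27ac at 3.91% (2.34 to 6.11) against 0.674%.

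**Figure D2:**
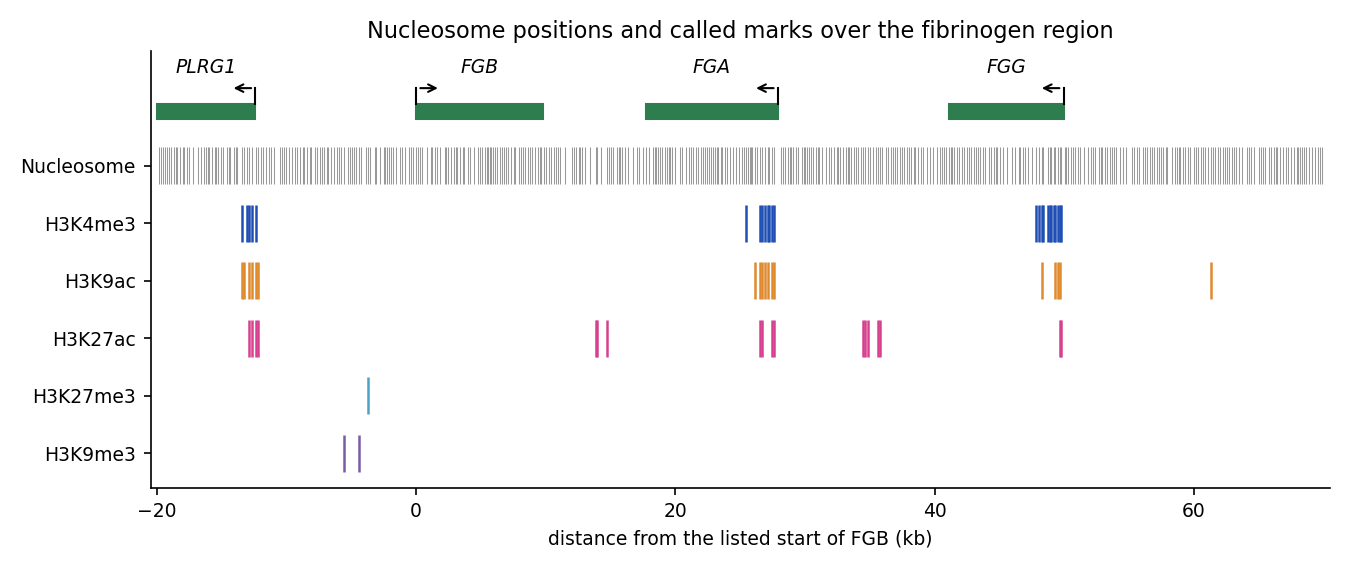
Nucleosome positions (grey) and positions with each of the 5 marks, by distance in kb from the listed start of FGB, with genes as green bars and arrows in the direction of transcription. H3K4me3 lies at the starts of PLRG1, FGA and FGG, H3K27ac alone lies between the genes, and the FGB bar has no mark under it.

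By exact combination, the 40 marked positions were 10 with H3K4me3 alone ("A"), 8 with the trivalent mark H3K4me3/H3K9ac/H3K27ac ("T"), 8 with H3K27ac alone and 6 with H3K4me3/H3K9ac ("D"). H3K9ac alone was on 3, H3K9me3 on 2, and H3K9ac/H3K27ac, H3K4me3/H3K27ac and H3K27me3 on 1 each. No activation mark shared a position with H3K27me3 or H3K9me3. These combinations did not mix along the region. "T", "D" and "A" lay at the starts of FGA, FGG and PLRG1, and H3K27ac alone lay between the genes.

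FGB carried no mark at all. None of the 52 nucleosome positions inside the FGB locus had a peak of any of the 5 marks, nor did any of the 19 positions within 2 kb of its transcription start site (TSS). By contrast, 9 of 55 positions inside FGA and 12 of 44 inside FGG were marked. The nearest marked positions to the FGB start were upstream and repressive. H3K27me3 lay at -3688 bp from the start, and H3K9me3 at -4405 and -5570 bp. A position without a peak is one that is absent from the deposited lists. These lists mark a smaller share of positions than the paper reports, and the reason was not tested. Absence from them is therefore not the same as failing the filters of the authors, or as lacking the modification. The positions themselves were not sparse in FGB, at 5.38 per kb against 5.59 in FGA and 5.07 in FGG.

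FGB was then compared with genes of about its level or higher, with the limit of 50 set after its FPKM was seen. Of the 870 genes with an FPKM of at least 50, 29 had no marked position within 2 kb of the listed TSS, or 3.33% (exact 95% interval 2.24 to 4.75). Most of these had marks elsewhere in the locus. With the whole locus and 2 kb on each side counted, only 4 of the 870 (0.460%) had no mark. The other 3 were MTRNR2L9 at a mean FPKM of 1032, MTRNR2L8 at 157.6 and MIR663 at 93.4, all named because of this count. These 3 loci span 527, 1290 and 1520 bp, and FGB spans 9784 bp. MTRNR2L9 and MTRNR2L8 are nuclear sequences related to a mitochondrial ribosomal RNA, and whether reads of related sequences were counted to them was not tested.

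FGA had a compact marked stretch and, with 4, the most "T" of the 3 genes. Its marks filled 8 of 9 consecutive positions from 155510212 to 155511841, a stretch of 1630 bp that starts just inside the listed gene. Read from the TSS into the gene, a pair of "T" came first, then H3K4me3 alone, a pair of "D", another pair of "T" and, last, H3K9ac alone. Their midpoints lay from 265 to 1755 bp downstream of the listed TSS. A further "A" lay 2470 bp downstream. FGA thus had 4 "T", 7 positions with H3K4me3, 7 with H3K9ac and 4 with H3K27ac within 2 kb, and no mark within 2 kb upstream.

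FGG, the gene with the highest FPKM of the 3, had the longest stretch and 1 "T". All 12 consecutive positions from 155531912 to 155533996 were marked, over 2085 bp, and all 12 carried H3K4me3. From the TSS inward, H3K4me3/H3K27ac came first, then the only "T" and a pair of "D", followed by H3K4me3 alone on 7 of the remaining 8. Only the 2 positions nearest the TSS, at 163 and 303 bp, had H3K27ac. The last H3K9ac was at 1663 bp and the last H3K4me3 at 2108 bp. Within 2 kb the counts were 11 for H3K4me3, 4 for H3K9ac, 2 for H3K27ac and 1 for "T". The number of "T" at FGG depends on how peaks are matched, since it was 3 when a peak marked every position it touched, while FGA again had 4 and FGB 0.

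**Figure D3:**
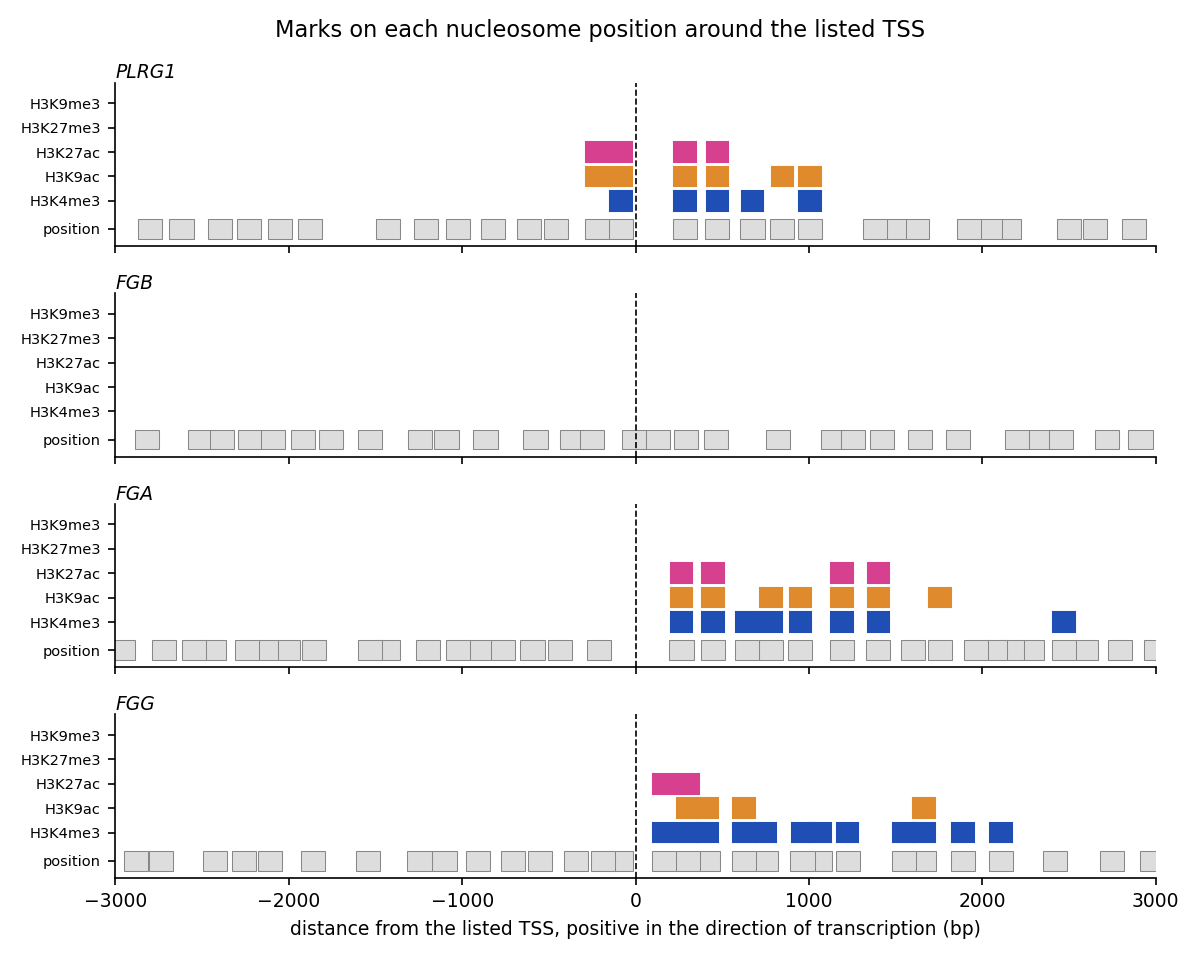
Nucleosome positions (grey boxes, 140 bp) within 3 kb of the listed TSS of PLRG1, FGB, FGA and FGG, with a coloured box above each position for every mark called on it. The x axis is the distance in bp, positive in the direction of transcription. FGB has no coloured box, and within 2 kb FGA has 8 positions with at least 1 coloured box and FGG has 11, all downstream of the listed TSS.

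The listed starts are not exact. Distances between the RefSeq starts are 27762 bp from FGB to FGA and 21914 bp from FGA to FGG, and between the listed starts they are 27905 and 22053 bp. The listed FGA and FGG starts may therefore be off by up to 282 bp in relation to FGB. The marked position nearest the FGG start, at 163 bp, lies within that uncertainty, so that counts by distance and the side of the start rest on the listed starts.

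At least 1 "T" within 2 kb of the TSS was found at 2 of the 3 fibrinogen genes, against 42.8% of all named genes. At least 1 marked position was found at the same 2, against 63.8%. Most genes at the level of these 3 had both. Of the 870 genes with an FPKM of at least 50, 7.24% had no "T" and 3.33% had no marked position. Among the 386 genes with an FPKM of at least 100, the median was 4 "T", the number at FGA, and 63.2% had no more than FGA. For FGG, 13.7% of these genes had 1 "T" or fewer, a share that rests on the count of 1. By its number of H3K4me3 positions FGG was at the other end, since 7.25% had 11 or more.

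A high number of H3K4me3 positions usually came with H3K27ac. Of the 132 genes with an FPKM of at least 100 and at least 8 positions with H3K4me3, the median was 6.5 with H3K27ac. FGG was 1 of 2 among them with at most 2. The limit of 2 is the count at FGG itself, and neither it nor the limit of 8 was planned. Where a peak marked every position it touched, FGG had 3 "T" and so more than 2 positions with H3K27ac. At least 6 "A" within 2 kb, the number at FGG, were found at 3 of the 386 genes (0.777%), FGG included, and the median was 1. FGA had 1 "A". Marks downstream of the listed TSS with none upstream within 2 kb, as at FGA and FGG, were seen at 24.3% of the 366 genes of this level that had any mark downstream. For FGG the side of the nearest mark is uncertain, as its listed start is not exact.

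**Figure D4:**
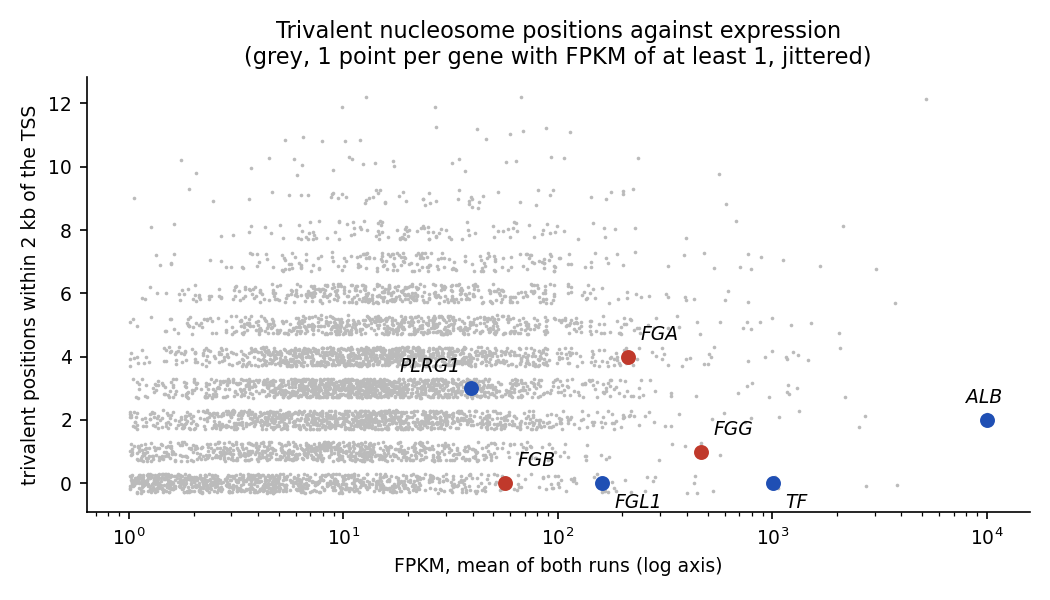
Number of trivalent positions within 2 kb of the TSS against the mean FPKM of both runs on a log axis, with 1 grey point per gene with an FPKM of at least 1, spread vertically by chance to separate equal counts. FGA has 4, FGG has 1 and FGB has 0 (red), and PLRG1, ALB, FGL1 and TF (blue) have 3, 2, 0 and 0. Over the locus with 2 kb on each side, ALB has 6, FGL1 has 3 and TF has 7, but FGB has 0.

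Genes with mark counts like those of each fibrinogen gene were sought among genes with an FPKM of at least 100. Likeness was the summed absolute difference of 10 numbers, the positions with each of the 5 marks within 10 kb upstream and downstream. The nearest to FGA was APOH, apolipoprotein H, with a difference of 4, followed by CCDC72 and PON2 with 5, and HAMP and LAPTM4B with 6, taken in alphabetical order from ties, since 7 genes differed by 6 or less. The nearest to FGG was SLC7A5, an amino acid transporter, which differed by 2 and had 10 H3K4me3, 3 H3K27ac and 1 "T" within 2 kb. FDFT1 followed with 5, and HNRNPF, LOC647979 and RPS15 with 7. The nearest to FGB were MTRNR2L8, IL12RB2 and TF, each with a difference of 3, then MTRNR2L9 with 4 and ASNS with 5. This likeness covers the surroundings of the listed TSS only. Over the locus with 2 kb on each side, TF had 23 marked positions and IL12RB2 had 7, but FGB had 0. The level of IL12RB2 rests on a single run, at 5476 FPKM in the first and 0.0324 in the second. Nothing follows from these distances about shared control.

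H3K27ac without any other mark was found in the DNA between the genes. Between FGB and FGA, 3 positions carried it from 155497907 to 155498921, over 1015 bp. They lay 13.8 to 14.7 kb from the FGB start and 13.2 to 14.1 kb from the FGA start, about midway between them. Between FGA and FGG, 5 positions carried it from 155518537 to 155520011, over 1475 bp. They lay 6.57 to 7.91 kb upstream of FGA and 14.1 to 15.5 kb from the FGG start, beyond its far end. No position in either intergenic stretch carried H3K4me3 or H3K9ac. Enhancers active in liver are known from the intergenic DNA of this cluster, and whether these positions fall on them was not tested. The sequence of these positions is not printed, as no genome of this build was used here.

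**Figure D5:**
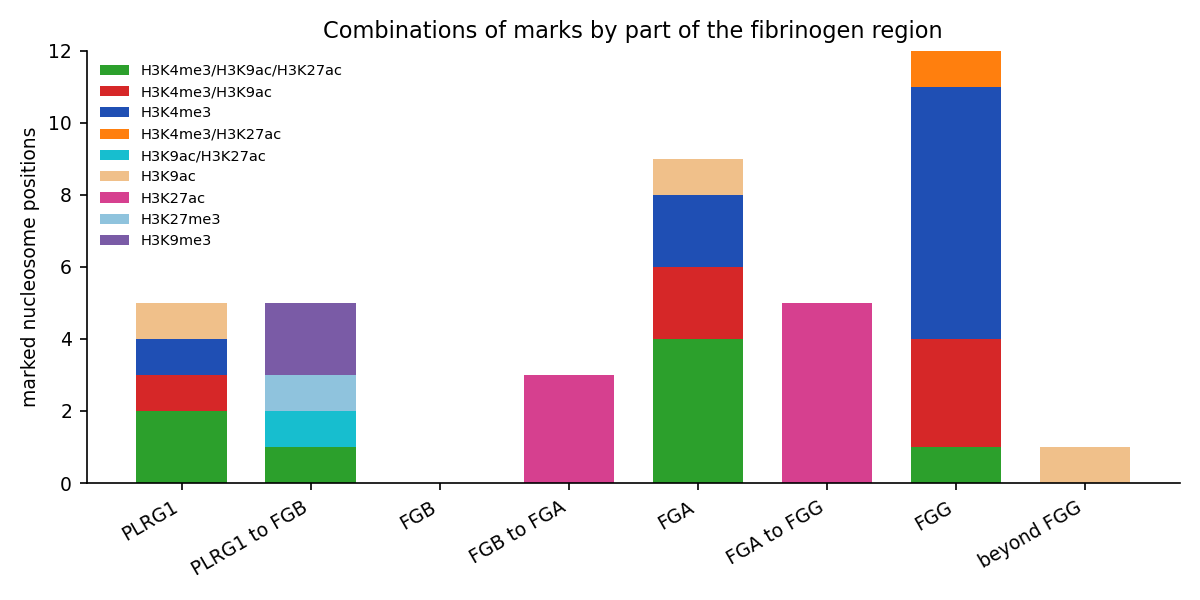
Number of marked nucleosome positions in each part of the fibrinogen region, in order along the chromosome, stacked by the exact combination of marks. PLRG1 is counted only where it lies in the region. FGA has 9 and FGG has 12, the stretches between FGB, FGA and FGG have 3 and 5 with H3K27ac alone, and FGB has 0.

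The marks of PLRG1 closed the region on the FGB side. It had 7 marked positions within 2 kb of its TSS, with 3 "T" and 5 with H3K4me3, on both sides of the TSS. Its outermost marked position lay at -12190 bp from the FGB start. Beyond FGG, 1 of 102 positions was marked, with H3K9ac alone at -11367 bp from the FGG start.

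The genome was divided into 31927 windows of 89958 bp, the length of the region. The median window had 4 marked positions and 0 "T". At least 40 marked positions were found in 110 windows (0.345%), and at least 10 "A" in 104 windows (0.326%). For "T", 5.47% of windows had at least the 8 of the fibrinogen region, and for H3K27ac alone 5.89% had at least 8. The region thus stood higher by H3K4me3 alone and by all marks together than by "T". The counts of the region include the promoter of PLRG1, with 7 marked positions and 3 "T". The windows lie on a fixed grid, but the region was placed around expressed genes. They are a description and not replicates.

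Other clusters of plasma protein genes were treated in the same way, namely the albumin cluster (ALB, AFP and AFM) on chromosome 4 and the APOA1 cluster (APOA1, APOC3, APOA4 and APOA5) on chromosome 11. Marked positions made up 7.62% in the albumin region (5.79 to 9.80) and 6.55% in the APOA1 region (4.63 to 8.95), and both intervals overlap that of the fibrinogen region. "T" was at 1.74% of positions in the fibrinogen region (0.754 to 3.40), 0.831% in the albumin region (0.306 to 1.80) and 2.91% in the APOA1 region (1.67 to 4.68). Genes with a higher FPKM did not always have more "T". ALB, with a mean FPKM of 10011, had 2 "T" among 4 marked positions within 2 kb. AFP, with 3798, had 0 "T" among 7 positions with H3K4me3, of which 4 were "A". Over the locus with 2 kb on each side, ALB had 6 "T" and AFP had 0. AFM was at 1.51, and APOC3 and APOA4 were at 243.4 and 1.25. APOA1 was at 1427 at one of 2 loci that share their coordinates, which makes its level less certain, and APOA5 shares a locus with ZNF259.

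Nucleosome spacing in the region was that of the genome. The median distance from start to start was 180 bp in both, with 10th and 90th percentiles of 124 and 290 bp in the region and 117 and 295 bp in the genome. Neighbouring positions overlapped in 19.6% of cases in the region and 23.3% in the genome. No position lay over the listed TSS of FGA or FGG, and 1 lay over that of FGB. This rests on the listed starts, since those of FGA and FGG may be off by up to 282 bp in relation to FGB. FGA had a gap of 335 bp between positions, from -140 to 194 bp of the listed TSS. This was its longest within 2 kb. In FGB the longest was 215 bp and in FGG 185 bp, and both lay inside the gene, from 536 and 1293 bp on. Over genes with an FPKM of at least 100, the median of the longest gap was 315 bp, and 82.6% had one at least as long as FGB and 90.7% one at least as long as FGG.

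Genes that act with fibrinogen were counted from lists. An FPKM of at least 1 was reached by 47.7% of all named genes. Of 11.0 regulators, all 11.0 reached it, with a median of 31.8. IL6ST, the signalling subunit of the interleukin-6 receptor, was the highest with a mean of 78.5, followed by CEBPA with 71.0 and HNF4A with 64.6. IL6R was at 10.9 and STAT3 at 31.8.

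Of 9 genes for folding and export of secreted proteins, all 9 reached an FPKM of 1, and all 9 were above FGB. P4HB at 460.5 and CALR, calreticulin, at 444.5 were close to FGG, and HSP90B1, a chaperone of the endoplasmic reticulum, was at 396.6. LMAN1 and MCFD2, the cargo receptor pair for coagulation factors, were at 104.1 and 126.1.

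Of 16 partners of fibrinogen in clotting and clot breakdown, 11 reached an FPKM of 1. FN1, fibronectin, was the highest at 608.9, the single partner above FGG, followed by SERPINF2, which inhibits plasmin, at 162.2 and SERPINC1, antithrombin, at 152.6. F2, prothrombin, was at 141.9. F13A1, the catalytic subunit of factor XIII, was listed at 0 in both runs, and ITGA2B, of the platelet fibrinogen receptor, was at 0.0702. The plasmin precursor PLG was at 2.38.

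Of 21 other genes whose proteins carry a fibrinogen-like domain, 6 reached an FPKM of 1, and 11 were under 0.1. FGL1, a fibrinogen-like protein of hepatocytes, was the highest, at 159.6 in run 1 and 162.6 in run 2, between FGA and FGB. ANGPTL6 at 2.70 and ANGPTL1 at 1.95 came next. FGL1 had no marked position within 2 kb of its listed TSS but 16 over its locus with 2 kb on each side, 3 of them "T". The 11 under 0.1 were ANGPT1, ANGPT2, ANGPT4, ANGPTL5, ANGPTL7, FCN1, FCN2, FCN3, TNC, TNN and TNR, of which FCN1, FCN3, TNR and ANGPTL5 were listed at 0 in both runs.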

How the data were processed

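The authors aligned MNase-Seq and ChIP-Seq reads to hg19 with BWA, called nucleosome positions with DANPOS, and called peaks at these positions with NUCLIZE, keeping those that were 4-fold enriched or more with P value and false discovery rate up to 0.01. The deposited lists give coordinates and identifiers without heights or reads, so the depth per position is unknown. The authors deposited FPKM in 2 columns of the RNA sample, averaged here as 1 sample. TopHat2 2.1.0 is named in the submitters' processing notes. The deposited p-values, log2 fold changes and test scores of the columns were not used. Read counts were not used here. Among 2426 loci above 0 in both runs with a mean under 0.1, the most common ratio of run 1 to run 2 was between 0.86 and 0.88.

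Each peak was given to the position it overlapped most, whose identifier it carried in every case. Positions are written with the first base as 1, loci as listed. A position was near a TSS if its midpoint was. The TSS was the listed end of the locus on the RefSeq strand of the symbol, or on the strand given by locus numbering where RefSeq was not matched. Both gave the same strand for 8396 of 8426 genes. Genes with a single symbol at a single locus of unshared coordinates, on a known strand and with a usable status, were kept (13265 of 30032 loci). Marked positions up to 500 bp apart form a stretch. Promoter sequences are from RefSeq, and all 3 symbols matched, FGB with 2 starts, of which the one at the start of the gene was used.

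Intervals are Clopper-Pearson. Counting was tested on simulated data in which no positions overlapped, so the matching of peaks to overlapping positions was not tested. Named genes are the 3 fibrinogen genes, loci in the region, the comparison clusters, the 3 highest and those under an FPKM of 0.1 in each list, the next in FPKM and the 5 nearest by mark counts. Others, such as IL6R, STAT3, F2, PLG, LMAN1 and MCFD2, were named for their role or for a count after their values were seen. The genes and lists were chosen with earlier results of these data known. A gene of the regulator list and a motif are not reported here. Alternatives are given at the end. Python 3.11.15, numpy 2.4.6, pandas 2.3.3 and scipy 1.17.1 were used.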

Additional observations from a re-analysis of the deposited data

How the results depend on the processing

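Of 85 recomputed values, 17 moved beyond a set limit, and a reversal of order was not scored. For the FPKM and the FPKM ratios of a single run, the limit was wider than their distance from the main value, so these values could not move. With a pseudocount of 1 the ratio of FGG to FGB was 8.10. Without flanks, or with 10 kb, the region held 5 "T", since PLRG1 is then left out. Within 1 kb of the TSS, FGA had 2 "T". Where a peak marked every position it touched, FGG had 3 "T" and the region 11. FGB had 0 "T" under every setting run. On autosomes, 5.79% of windows had at least as many "T" and 6.16% at least as many with H3K27ac alone. Among windows with any mark, these were 6.21% and 6.69%. Among all 30032 loci, unnamed ones included, FGG ranked 170th, FGA 330th and FGB 1427th. Of genes with an FPKM of at least 1, 15.4% had no "T", like FGB, 27.5% had no more than FGG and 77.1% no more than FGA. With an FPKM limit of 0.1 or 5, 10 or 1 of the 21 fibrinogen-like genes counted as expressed. The FPKM limit of 50 and the count over the whole locus were added after seeing the data. No paired analysis was possible because each assay has 1 sample. As the lists give no heights, the peak threshold could not be varied.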
